A study of Homo sapiens with 35 samples.

Results

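Homologous recombination copies an intact sister DNA to mend a broken one, and the Fanconi anemia pathway removes crosslinks between DNA strands and hands the resulting break to the same machinery. A set of 34 genes of these pathways was followed in RPMI-8226 cells, a human multiple myeloma line, through the 10 days after a short pulse of a proteasome inhibitor. The 34 genes were taken by name, as the protein-coding entry of each symbol in the table of counts. They were 34 of 17999 protein-coding entries with a count in at least 1 of 35 libraries.

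In this pathway, the MRE11, RAD50 and NBN proteins recognize a broken end, CtIP (encoded by RBBP8) and EXO1 trim it to single-stranded DNA, and BRCA1, BARD1, PALB2 and BRCA2 ready it for the search for a sister sequence. RAD51C, RAD51D, XRCC2, XRCC3, RAD54L and RAD51AP1 help the broken strand invade the sister DNA. In the Fanconi branch, FANCM anchors a multisubunit ubiquitin ligase that marks the FANCD2 and FANCI pair. The kinases ATM, ATR, CHEK1 and CHEK2 signal the damage to the cell cycle, and transcription of many of these genes is known to rise as cells enter S phase, when a sister DNA is at hand.

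The study compared untreated RPMI-8226 cells (day 0) with cells taken on days 1, 2, 4, 6, 8 and 10 after carfilzomib, an irreversible proteasome inhibitor, given at 750 nM for 1 h and then washed out. Each of the 7 days had 5 libraries of total RNA. By the study's methods, day 0 cells were collected before the pulse, although the labels list carfilzomib for all 35 libraries, and no library is of an untreated culture from a later day, so that time in culture and time since the pulse cannot be told apart. The subcultures were split from 1 expanded culture of a single line, so p-values measure the spread between subcultures and not between lines or patients. The methods give 5 subcultures for RNA sequencing, sampled on each day, and the fit used here did not pair libraries of different days. Levels are given as CPM (counts of a transcript over the scaled library total, with TMM factors) and changes as log2 fold changes with their standard errors (SE). A transcript was called higher or lower when its adjusted p (Q) from the edgeR quasi-likelihood test was at most 0.05 over all 17999 entries.

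Total counts ranged from 6519392 to 10962890 per library (median 7643975), and no 2 libraries were identical. All 34 genes passed the filter on low counts that 12301 of the 17999 entries passed, and FANCB had the lowest sum over the 35 libraries (812 counts), followed by RAD52 (1172) and XRCC2 (1309). The plasma cell markers SDC1 (209.6 to 362 CPM), IRF4 (292 to 574 CPM) and XBP1 (370 to 498 CPM) were present in every library, while LYZ reached at most 0.317 CPM and HBB 0.463 CPM. Of the markers of other cell types, the B cell gene MS4A1 was in every library (3.73 to 13.3 CPM), PECAM1 reached 7.94 CPM, CD3E 4.81 CPM and PAX5 4.71 CPM. The sum of 7 plasma cell markers was 1108 to 1230 CPM on day 1 and 1486 to 1594 CPM on day 0, with 4 of 7 lower and 0 higher on day 1 at Q ≤ 0.05. The sum of 9 markers of other cell types was 8.47 to 11.7 CPM on day 1 and 13.9 to 20.6 CPM on day 0, with 4 of 9 lower and 0 higher on day 1. That sum was 12.4 to 15.5 CPM on day 2, 20.5 to 27.5 CPM on day 4, 20.8 to 27.0 CPM on day 6, 20.1 to 24.4 CPM on day 8 and 18.6 to 21.2 CPM on day 10, with 2 of 9 higher and 2 lower on day 2, 2 higher and 0 lower on days 4 and 6, and 1 and 0 on day 8. Of all entries tested, 25.4% were higher and 27.3% lower on day 1, and the shares for the other days are given below. The part of these markers in the results that follow was not tested. The libraries are bulk RNA, in which fewer cells with a transcript and less of it per cell cannot be told apart.

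Transcripts for homologous recombination and Fanconi repair rose early, and most stood highest 2 days after the pulse. RAD54L, EXO1, RAD54B and FANCI were more than 4-fold above untreated cells on that day, and BRCA1, BRCA2, BARD1, FANCD2 and CHEK1 were more than 2-fold above. With counts summed over biotypes, FANCI (log2 fold change 1.94) and RAD54B (1.79) were below 4-fold and FANCD2 (0.87) below 2-fold. The others named stayed above. MRE11A and ATM, which act at the break itself, and FANCD2 fell on day 1, and their changes of −0.59, −0.65 and −0.50 became −0.39, −0.44 and −0.30, still called, with scaling factors over all transcript biotypes. Of the 34 genes, 18 (52.9%) were higher and 5 (14.7%) were lower than in untreated cells on day 1, where 25.4% of all entries tested were higher and 27.3% were lower. On day 2, 28 (82.4%) were higher and 1 was lower, beside 23.2% and 24.4% of all entries. The count of lower genes on day 1 was 3 without replicate 2 or 4 of day 0 or replicate 1 of day 1. Among the 12301 entries that passed the filter on low counts, as all 34 genes did, 36.1% were higher and 34.8% lower on day 1, and 33.1% were higher and 31.7% lower on day 2. The 34 genes had median log2 fold changes of 0.37 (day 1) and 0.96 (day 2), against −0.06 and −0.04 for all entries tested.

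Fewer of the 34 transcripts were called higher on each of the later days than on day 2. On day 4, 19 were higher and 0 lower (1 lower at an unadjusted p under 0.05, 0 by DESeq2), beside 19% and 20.1% of all entries. On day 6, 16 were higher and 4 lower, beside 17.5% and 17%. On day 8, 14 were higher and 3 lower, beside 18.2% and 18.6%. Among the entries that passed the filter, the shares were 27% and 27% on day 4, 24.8% and 23.2% on day 6, and 25.9% and 24.8% on day 8. On day 10, 19 were higher and 0 lower (0 lower at an unadjusted p under 0.05, 0 by DESeq2), beside 16.1% and 15.8% of all entries and 23.1% and 21.6% of those that passed the filter. Their medians were 0.63, 0.26, 0.30 and 0.45 on days 4, 6, 8 and 10. The 6 comparisons share the day 0 libraries, so the values of a gene on different days are not independent of each other.

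**Figure D1:**
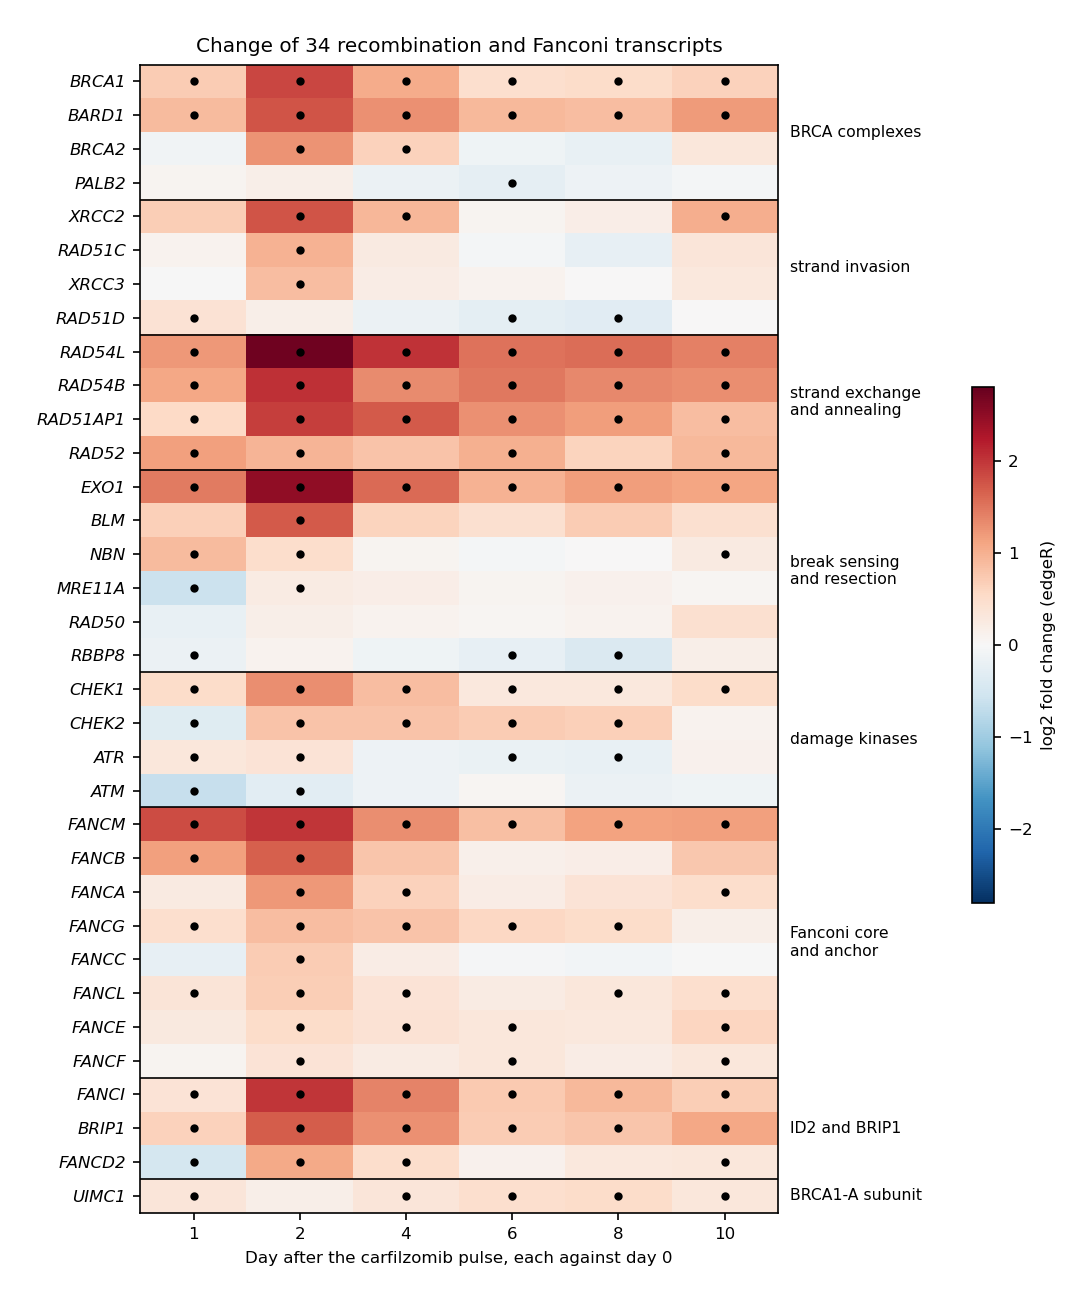
Log2 fold change of each of the 34 transcripts (rows, grouped by role) on days 1, 2, 4, 6, 8 and 10, each against day 0 (columns, 5 libraries a day). Red is higher and blue lower than day 0, and a black dot marks an edgeR adjusted p of at most 0.05; the day 2 column holds 28 dots on red cells and 1 on a blue cell (ATM).

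With a change of more than 2-fold asked for as well, 6 of the 34 were higher on day 1 (7.27% of all entries) and 16 on day 2 (6.32%). By the same measure 9 passed on day 4 (4.12%), 4 by day 6 (3.18%), 5 by day 8 (3.60%) and 7 at the end of the 10 days (2.41%). Of the 34, 0 were lower by that much on any of these days. Among the 12301 entries that passed the low-count filter, as all 34 did, 1183 were higher and 1737 lower by that much on day 1. On day 2 these counts were 1025 and 1109. They were 647 and 650 on day 4, 480 and 422 on day 6, and 380 and 436 on day 10. The mean level was highest on day 2 for 25 of the 34 genes, against 16.7% of the 12301 entries that passed the filter. NBN, RAD51D and RAD52 stood highest on day 1, while CHEK2 (day 4), ATM (day 6), UIMC1 (day 8) and FANCE, RAD50 and RBBP8 (day 10) did so later. Together, the 34 genes took 0.0926% ± 0.00307 of protein-coding counts on day 0 (SD, n = 5), 0.105% ± 0.0029 on day 1, 0.161% ± 0.0115 on day 2 and 0.114% ± 0.00749 on day 10. The 5 libraries of day 2 lay between 0.1475% and 0.1754%, above the highest library of every other day.

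Scaling moved the smaller of these changes. TMM factors computed over all transcript biotypes instead of protein-coding entries, an alternative chosen after seeing the data, moved the median log2 fold change of the 12301 entries from 0.01 to 0.22 on day 1, from 0.00 to 0.19 on day 2 and from −0.01 to 0.13 on day 4. With these factors 23 of the 34 genes were higher and 3 lower on day 1, beside 32% and 20.2% of all 17999 entries. On day 2 they were 32 and 0 (30.4% and 17.2%), on day 6 17 and 0 (19.5% and 13.1%), and on day 8 19 and 1 (23.1% and 13.6%). Among the 12301 entries that passed the filter, 45.5% were higher and 25.5% lower on day 1 with these factors. These shares were 43.3% and 21.8% on day 2, 27.7% and 17.6% on day 6, and 32.8% and 17.8% on day 8.

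The promoter sequences of the 2 genes at the ends of the day 2 order are given to show what lies before each start. Of the 34 genes, 31 had a promoter window in RefSeq (GRCh38.p14; 250 bases before to 50 after a start, 44 windows in all). The letters searched, on both strands, were those of the E2F site (TTTCCCGC or TTTCGCGC or TTTGCCGC or TTTGGCGC), the cell cycle homology region, CHR (TTTGAA), and the CCAAT box (CCAAT). An E2F site was in a window of 5 of the 31 genes (16.1%: EXO1, FANCA, FANCC, FANCD2 and XRCC2), against 3.99% of 27305 genes with a window. A CHR was in 3 (9.68%, against 18.2%) and a CCAAT box in 14 (45.2%, against 39.7%). These are matches of letters in 1 short window and say nothing of binding. RAD54L, with the largest day 2 change, and ATM, with the lowest, are shown as the 250 bases before the first RefSeq start of each (chr1:46247438-46247687 and chr11:108222817-108223066, both on the plus strand, GRCh38.p14). Capitals mark the reverse complement of a CCAAT box (ATTGG) in both and a CHR (TTTGAA) in ATM, and no 2 matches overlap.
RAD54L: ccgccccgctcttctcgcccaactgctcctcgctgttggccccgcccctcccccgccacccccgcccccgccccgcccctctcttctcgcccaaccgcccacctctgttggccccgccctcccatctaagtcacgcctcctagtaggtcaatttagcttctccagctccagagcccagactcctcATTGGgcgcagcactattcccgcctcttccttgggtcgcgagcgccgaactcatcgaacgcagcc
ATM: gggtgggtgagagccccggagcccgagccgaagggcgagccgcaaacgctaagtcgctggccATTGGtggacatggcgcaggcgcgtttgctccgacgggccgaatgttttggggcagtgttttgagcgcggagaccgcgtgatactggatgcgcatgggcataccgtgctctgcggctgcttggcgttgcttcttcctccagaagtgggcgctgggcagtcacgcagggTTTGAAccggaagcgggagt
The CCAAT box marked in RAD54L lies 65 to 61 bases before the start, and that in ATM 188 to 184. The CHR of ATM lies 20 to 15 bases before it. The whole RAD54L window, which runs 50 bases past the start, held 2 CCAAT matches, and another window of ATM held 2.

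The BRCA complexes were led by the BRCA1 and BARD1 pair, a ubiquitin ligase that starts recombination. BRCA1 (chromosome 17, 43044295 to 43170245, GRCh38, GENCODE) stood at 29.4, 33.5, 36.3, 31.1 and 35.04 CPM in the 5 untreated libraries and at 111, 115, 122, 125 and 128 CPM on day 2. All day 2 libraries were above all untreated ones, and the mean rose from 33.1 ± 2.83 to 120.3 ± 7.13 CPM (SD, n = 5; log2 fold change 1.87, SE 0.08, edgeR adjusted p = 6.73e-22). BRCA1 was also higher on day 1 (0.72, Q = 4e-09) and day 10 (0.66, Q = 1.19e-07). BARD1 was at 8.02, 7.78, 5.72, 7.01 and 4.81 CPM on day 0, at 20.95, 23.4, 21.7, 26.4 and 21.6 CPM on day 2 and at 13.5, 14.3, 15.8, 16.5 and 17 CPM on day 10. Both later days lay wholly above day 0, and the changes were 1.76 (SE 0.13, Q = 1.2e-15) and 1.20 (SE 0.13, Q = 6.83e-10). BRCA2, which acts on the resected end, did not pass the test on day 1 (−0.09). Its libraries were at 8.72, 8.57, 10.9, 8.02 and 5.198 CPM on day 0 and at 18.8, 15.3, 23.8, 22.1 and 19.98 CPM on day 2 (log2 fold change 1.26, SE 0.18, Q = 8.79e-08), and its day 10 change was 0.31 (Q = 0.23). PALB2, the bridge between BRCA1 and BRCA2, moved least of the 4 on day 2. Its untreated libraries held 33.6, 35.5, 32.7, 36.5 and 34.8 CPM and its day 2 libraries 36.9, 41.6, 41.5, 35.9 and 37.1 CPM, groups that overlapped, with a log2 fold change of 0.16 (SE 0.08, Q = 0.107). PALB2 was called higher on day 2 with factors over all biotypes (0.35), without factors (0.29), in sums over biotypes (0.23) and in a fit of the 2 days alone (0.20). On day 6 PALB2 was lower (−0.26, Q = 0.0158), a call that was lost without scaling factors (−0.20) and with factors over all biotypes (−0.19).

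Among genes of strand exchange and annealing, RAD54L showed the largest change of the 34 on day 2. RAD54L (chromosome 1, 46246461 to 46278480) encodes a DNA translocase of strand exchange. Its libraries held 6.61, 7.62, 8.04, 7.42 and 6.93 CPM on day 0, 18.1, 20.1, 13.7, 16.5 and 16.6 CPM on day 1, 45.2, 52.5, 51.9, 46.3 and 46.9 CPM on day 2 and 13.9, 18.6, 18.2, 21.2 and 24.5 CPM on day 10. Each of the later groups lay above every untreated library. The mean went from 7.32 ± 0.565 CPM (SD, n = 5) to 48.6 ± 3.41 CPM on day 2, a log2 fold change of 2.73 (SE 0.12, edgeR adjusted p = 4.82e-22), and was 1.40 above day 0 on day 10 (SE 0.13, Q = 1.97e-11). RAD54B, its relative, was at 4.08, 4.13, 1.79, 2.61 and 3.08 CPM on day 0, at 5.73, 7.87, 9.82, 4.63 and 5.75 CPM on day 1, at 11.3, 13.8, 15.1, 14.2 and 11.8 CPM on day 2 and at 9.498, 7.81, 5.49, 6.72 and 10.1 CPM on day 10. Its changes were 1.08 on day 1, 2.05 on day 2 (SE 0.25, Q = 2.89e-09) and 1.31 on day 10. RAD54B shares its locus with FSBP, a separate entry with 1231 protein-coding counts over the 35 libraries, so reads of the shared part could have gone to either. RAD51AP1, which stimulates strand invasion, held 2.39, 5.71, 5.899, 4.21 and 4.04 CPM on day 0 and 16.4, 17.6, 17.7, 13.1 and 19.3 CPM on day 2 (log2 fold change 1.93, SE 0.18, edgeR adjusted p = 2.82e-12). Its smaller change on day 1 (0.55, Q = 0.017) lost its call without replicate 1 of day 0 or replicate 5 of day 1, and it was 0.08 when counts were summed over all biotypes of the symbol.

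RAD52, which anneals single strands without BRCA2, had few counts and overlapping groups. Its libraries held 1.83, 0.476, 2.502, 4.61 and 5.58 CPM on day 0, 7.64, 6.61, 4.403, 5.49 and 7.95 CPM on day 1, 3.301, 6.11, 7.55, 5.09 and 5.82 CPM on day 2 and 7.91, 4.97, 2.58, 4.58 and 7.22 CPM on day 10, and the untreated group overlapped each of the others. The log2 fold change was 1.15 on day 1 (SE 0.34, Q = 0.00344) and 0.95 on day 2 (SE 0.33, Q = 0.016). Summed over all biotypes it was 0.26 on day 1 and 0.21 on day 2, and neither passed the test. The day 2 change ranged from 0.65 to 1.29 with single libraries left out, and it was not called without replicate 1 or 2 of day 0 or replicate 3 of day 2.

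**Figure D2:**
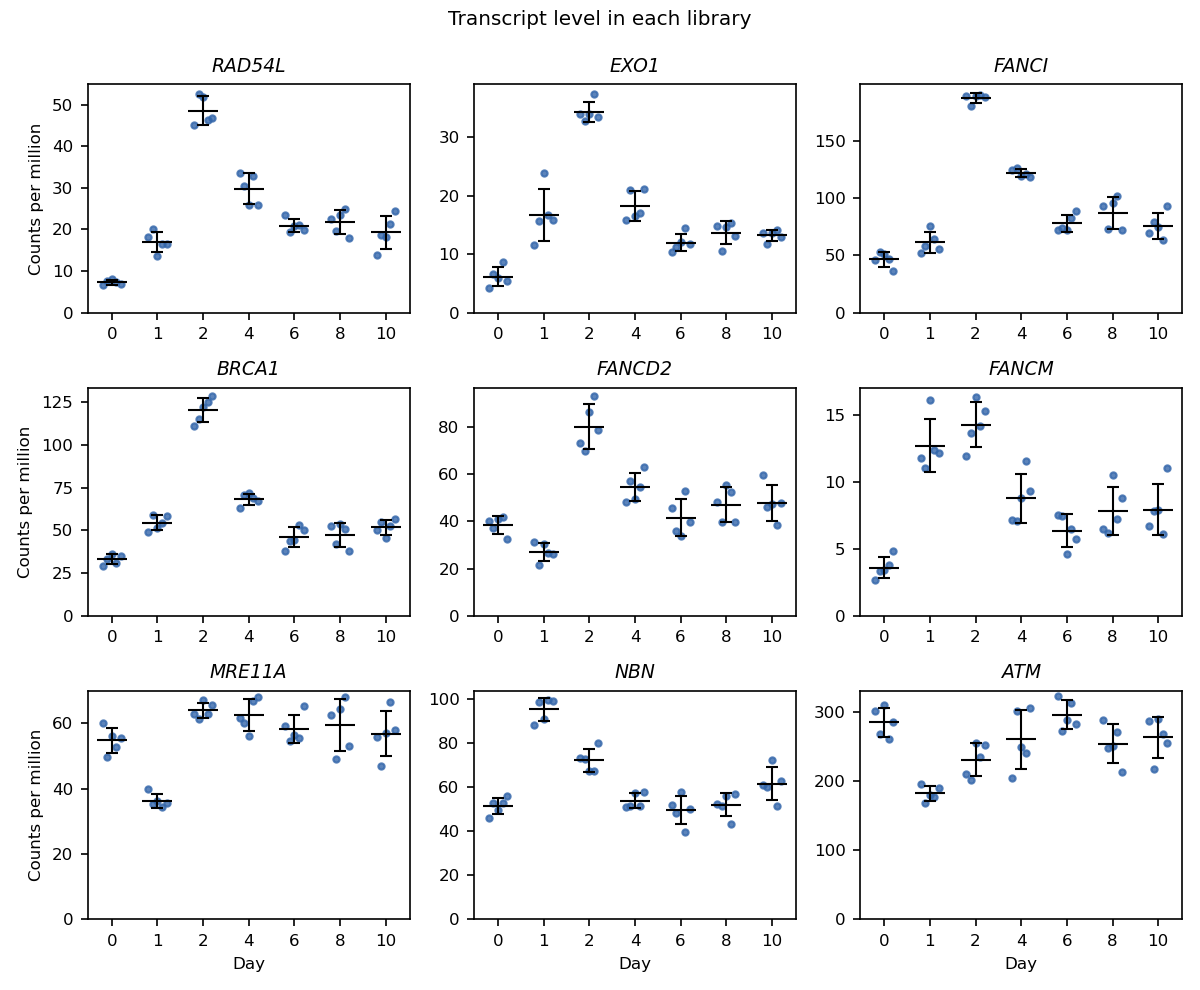
CPM of 9 transcripts in each of the 35 libraries by day (points), with the mean and SD of the 5 libraries of a day (black). RAD54L, EXO1, FANCI, BRCA1 and FANCD2 stood highest on day 2, FANCM had similar levels on days 1 and 2, NBN stood highest on day 1, and MRE11A and ATM were lowest on day 1.

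The break-sensing genes did not move together. EXO1 (chromosome 1, 241847967 to 241895148), the exonuclease that lengthens the resected end, was the most changed of them on day 2. It was at 4.22, 6.67, 5.899, 8.62 and 5.39 CPM in untreated libraries, at 11.6, 15.6, 23.9, 16.6 and 15.9 CPM on day 1, at 34.02, 32.8, 33.9, 37.3 and 33.4 CPM on day 2 and at 13.5, 11.8, 13.6, 14.1 and 12.99 CPM on day 10, each later group wholly above day 0. The changes were 1.45 on day 1 (SE 0.16), 2.49 on day 2 (SE 0.15, edgeR adjusted p = 6.55e-18) and 1.11 on day 10 (SE 0.16). BLM, a helicase that resects ends and dissolves crossed strands, held 6.05, 9.68, 2.32, 4.61 and 10.01 CPM on day 0 and 17.2, 21.1, 26.9, 23.4 and 19.2 CPM on day 2 (log2 fold change 1.72, SE 0.36, edgeR adjusted p = 9.47e-05).

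Within the MRE11 complex, whose 3 proteins act as 1 unit, MRE11A fell and NBN rose on day 1. MRE11A, the nuclease subunit (named MRE11 in current annotation), was at 60.1, 49.5, 55.9, 52.7 and 55.4 CPM on day 0, at 39.99, 35.3, 36.2, 34.3 and 35.7 CPM on day 1 and at 62.9, 61.2, 67.04, 62.9 and 65.6 CPM on day 2. All day 1 libraries were below, and all day 2 libraries above, the untreated ones, with changes of −0.59 (SE 0.08, Q = 8.12e-08) and 0.22 (SE 0.08, Q = 0.0178). The day 2 call was lost without replicate 2 or 4 of day 0 or replicate 3 of day 2. NBN, the adapter subunit, went the other way on day 1. Its libraries held 46.1, 52.5, 49.7, 52.9 and 56.02 CPM on day 0, 88.4, 98.7, 90.9, 99.5 and 99.2 CPM on day 1 and 73.1, 72.6, 67.5, 67.1 and 80.2 CPM on day 2, a rise of 0.89 on day 1 (SE 0.08, Q = 1.21e-12) that shrank to 0.49 on day 2 (−0.40 against day 1, Q = 3.24e-05). RAD50, the ATPase subunit, scattered widely in its protein-coding entry, with 23.2, 38.7, 33.6, 20.04 and 23.7 CPM on day 0, 14.6, 18.1, 47.9, 27.96 and 13.9 CPM on day 1 and 19.4, 36.03, 37.4, 53.1 and 9.28 CPM on day 2. Its changes of −0.20 and 0.16 had SEs of 0.43 and 0.41, larger than the changes themselves.

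RBBP8, whose product starts resection, did not pass the test on day 2. It held 76.1, 80.6, 70.2, 85.98 and 78.7 CPM on day 0 and 78.4, 84.8, 84.05, 80.4 and 92.2 CPM on day 2 (0.10, SE 0.06, Q = 0.203), and was called higher with factors over all biotypes (0.29), without factors (0.23) and in sums over biotypes (0.19). On day 8 it was lower (−0.41, SE 0.07, Q = 2.39e-06), and from day 8 to day 10 it rose by 0.57 (Q = 2.53e-08). Its day 1 change of −0.15 (Q = 0.0473) became 0.05 with factors over all biotypes.

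Among the damage kinases, ATM fell and CHEK1 rose. ATM (chromosome 11, 108223044 to 108369102), the kinase called to double-strand breaks, was at 302, 268, 310.3, 261 and 285 CPM on day 0, at 196, 168, 179, 177 and 190.2 CPM on day 1 and at 211, 201, 255, 235 and 252 CPM on day 2. All day 1 libraries and all day 2 libraries were below the lowest untreated one. The change was −0.65 on day 1 (SE 0.09, edgeR adjusted p = 3.68e-08) and −0.31 on day 2 (SE 0.09, Q = 0.00319), the only member called lower on that day. The day 2 change was −0.18 without scaling factors and −0.12 with factors over all biotypes, and neither passed the test. From day 1 to day 2 ATM rose by 0.34 (Q = 0.00155), and on day 10 its change was −0.12 (Q = 0.349). ATR, which responds to single-stranded DNA, went from 62.2 ± 3.47 CPM (SD, n = 5) to 77.5 ± 4.72 on day 1 and 81.1 ± 7.79 on day 2, and then to 54.7 ± 0.889 on day 6. Its changes were 0.32, 0.38 and −0.18, all called, though the last was −0.12 with factors over all biotypes and was not called there. CHEK1, the effector of ATR, held 20.8, 17.3, 19.5, 19.4 and 20.2 CPM on day 0 and 47.7, 46, 49.9, 50.3 and 45.9 CPM on day 2, with no overlap (log2 fold change 1.30, SE 0.09, edgeR adjusted p = 2.03e-16). CHEK2, the effector of ATM, went from 14.95 ± 1.43 CPM to 11.8 ± 2.596 on day 1 and 25.9 ± 2.76 on day 2. Its fall on day 1 (−0.34, Q = 0.0476) was lost in 6 of the 10 fits that left out a library of day 0 or day 1 and with factors over all biotypes (−0.14), and its rise on day 2 was 0.79 (Q = 2.95e-06). CHEK2 was called higher on days 4, 6 and 8 as well (day 8, 24.1 ± 2.66 CPM), and it fell to 16.1 ± 3.70 CPM on day 10 (−0.57 against day 8, Q = 0.00262).

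All 8 genes of the Fanconi core complex and its anchor were higher on day 2, with log2 fold changes from 0.39 (FANCF) to 2.00 (FANCM). FANCM (chromosome 14, 45135930 to 45200890), the translocase that brings the complex to DNA, was at 2.67, 3.33, 3.396, 3.81 and 4.81 CPM on day 0, at 11.8, 11.02, 16.1, 12.3 and 12.2 CPM on day 1, at 11.9, 13.6, 16.3, 14.2 and 15.3 CPM on day 2 and at 6.68, 7.81, 7.91, 6.11 and 11.1 CPM on day 10. It was higher on day 1 (1.83, SE 0.19, Q = 6.39e-11), and the step from day 1 to day 2 was 0.17 (Q = 0.427). FANCB, a scaffold of the ligase, held 1.83, 1.43, 1.61, 2.81 and 2.503 CPM on day 0, 3.82, 3.46, 4.06, 4.63 and 6.59 CPM on day 1 and 4.74, 6.33, 8.68, 8.02 and 4.405 CPM on day 2, with changes of 1.16 (Q = 0.00595) and 1.68 (SE 0.35, Q = 7.16e-05). These rest on few reads. FANCA, another core subunit, was at 16.7, 12.7, 17.9, 9.62 and 9.05 CPM on day 0 and at 31.6, 26.4, 33.6, 35.8 and 26.9 CPM on day 2 (log2 fold change 1.21, SE 0.16, edgeR adjusted p = 3.08e-08), and on day 1 it did not pass the test (0.24). FANCF, an adapter of the core, held 21.7, 21.7, 24.5, 21.04 and 25.2 CPM on day 0 and 32.4, 28.95, 28.5, 31.9 and 27.7 CPM on day 2, close but not overlapping groups (log2 fold change 0.39, SE 0.09, edgeR adjusted p = 0.000318). FANCL, the ligase subunit itself, rose by 0.36 on day 1 and 0.69 on day 2, FANCG by 0.48 and 0.85. The day 1 change of FANCG was 0.27 and not called without replicate 1 of day 0. FANCE and FANCC passed on day 2 (0.51 and 0.70) and not on day 1 (0.28 and −0.23). On day 1 FANCC turned to 0.34 and was called when counts were summed over biotypes, and FANCE was called in the sum (0.35), with factors over all biotypes (0.48) and without factors (0.39).

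The FANCD2 and FANCI proteins form the clamp that the core complex ubiquitinates, and their transcripts parted on day 1. FANCI (chromosome 15, 89243945 to 89317261) was at 45.6, 53.01, 51.1, 46.9 and 36.4 CPM on day 0, at 51.7, 58.1, 76.03, 64.3 and 55.96 CPM on day 1 and at 189, 179.9, 189, 189.7 and 189 CPM on day 2. The day 2 mean of 187 ± 4.102 CPM (SD, n = 5) was 2.00 above day 0 on the log2 scale (SE 0.10, edgeR adjusted p = 7.61e-21), and the day 1 change, with overlapping groups, was 0.39 (Q = 0.00157). FANCD2 held 39.9, 36.98, 41.1, 41.9 and 32.7 CPM on day 0, 31.2, 21.7, 30.5, 26.6 and 26.04 CPM on day 1 and 73.2, 69.7, 86.1, 93 and 78.5 CPM on day 2. Its day 1 libraries all lay below, and its day 2 libraries all above, the untreated ones, with changes of −0.50 (Q = 0.000723) and 1.05 (SE 0.11, Q = 1.54e-10). The step from day 1 to day 2 was 1.56 for FANCD2 (Q = 1.09e-14) and 1.61 for FANCI (Q = 4.95e-18). BRIP1, a helicase that binds BRCA1, was at 6.47, 5.08, 5.899, 5.21 and 5.58 CPM on day 0, at 18.2, 17.8, 16.9, 22.98 and 16.8 CPM on day 2 and at 11.6, 11.4, 11.3, 10.4 and 15.4 CPM on day 10, wholly above day 0 on both (1.70, Q = 1.32e-13, and 1.08, Q = 1.29e-07).

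RAD51C, RAD51D, XRCC2 and XRCC3 act together in strand invasion, and 3 of the 4 rose on day 2. XRCC2 held 4.08, 3.33, 5.18, 2.405 and 0.77 CPM on day 0, 11.6, 8.26, 13.6, 13.3 and 7.87 CPM on day 2 and 5.63, 4.97, 7.43, 5.96 and 8.66 CPM on day 10, day 2 wholly above day 0 and day 10 overlapping it, with a change of 1.76 on day 2 (SE 0.30, edgeR adjusted p = 4.29e-06) and 1.02 on day 10 (Q = 0.011). RAD51C rose by 0.98 (Q = 1.47e-06) and XRCC3 by 0.86 (Q = 2.03e-07) on day 2, and neither passed on day 1 (0.11 and −0.02) or day 10 (0.34 and 0.29). RAD51D, which binds XRCC2, took another course. Its libraries were at 32.2, 34.9, 38.4, 35.9 and 36.2 CPM on day 0, at 46.01, 46.3, 44.2, 47 and 50.7 CPM on day 1 and at 36.03, 37.9, 41.3, 44.4 and 39.8 CPM on day 2, highest on day 1 (0.40, Q = 8.13e-05) and not called on day 2 (0.17, Q = 0.098). RAD51D was called higher on day 2 with factors over all biotypes (0.36), without factors (0.30), in sums over biotypes (0.24) and with the 2 days alone (0.20), so that all 4 then rose. It was lower on days 6 (−0.27) and 8 (−0.32), calls that were lost with factors over all biotypes (−0.20 and −0.21).

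UIMC1 encodes RAP80, which holds BRCA1 at ubiquitin chains in a complex that limits resection. Its libraries held 29.7, 30.3, 22.7, 31.7 and 35.04 CPM on day 0, 33.4, 37.5, 30.9, 35.8 and 30.2 CPM on day 2 and 41.4, 40.6, 47.9, 43.3 and 41.2 CPM on day 8. It was called higher on day 1 (0.35) and not on day 2 (0.17, Q = 0.111). The day 2 change was called with factors over all biotypes (0.36), without factors (0.30) and in sums (0.29). The protein-coding entry stood highest on day 8 (0.52, SE 0.09, Q = 4.82e-06). In sums over biotypes the mean of UIMC1 was highest on day 1 (41.4 CPM), close to that of day 8 (41.0 CPM).

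Between successive days, the 34 genes moved in steps. From day 1 to day 2, 23 rose and 2 fell (20.2% and 19.4% of all entries tested), and the 2 were NBN and RAD51D. From day 2 to day 4, 24 fell and 0 rose (16.7% and 13.9%; 0 rose at an unadjusted p under 0.05, and 0 by DESeq2). The protein-coding entry of BLM changed by −1.10 in that step, and RAD54L fell by 0.71 on the log2 scale. From day 4 to day 6, 9 fell and 0 rose (5.98% and 6.09%; 1 rose at an unadjusted p under 0.05, and 0 by DESeq2), and 15 fell when counts were summed over biotypes. From day 6 to day 8, edgeR called 0 in either direction (1.03% of all entries rose and 1.53% fell), with 0 rising and 2 falling at an unadjusted p under 0.05 and 0 of either by DESeq2. From day 8 to day 10, 5 rose and 1 fell (5.08% and 4.97%). The 5 were ATR, NBN, RAD51C, RAD51D and RBBP8, and the 1 was CHEK2; without replicate 2 of day 8 or replicate 5 of day 10, 3 rose. Over the longer span from day 2 to day 10, 24 fell and 0 rose (18.8% and 16.5%; 1 rose at an unadjusted p under 0.05, and 0 by DESeq2), among them EXO1 (−1.38), RAD54L (−1.33), FANCI (−1.31) and BRCA1 (−1.21).

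Genes of DNA replication and the cell cycle were higher too. In each list below, the genes with the largest and smallest day 2 change are named among those with a mean level above 0 on the log2 CPM scale. Of the 12301 entries that passed the low-count filter, 36.1% were higher and 34.8% lower on day 1. The shares were 33.1% and 31.7% on day 2 and 23.1% and 21.6% on day 10. Of 36 genes of replication licensing and synthesis, 32 were higher and 1 lower on day 1, and 35 and 0 on day 2, with medians of 0.69 and 1.46. MCM10, which helps start replication forks, had the largest day 2 change of these (3.35, SE 0.13), going from 5.44 ± 1.01 to 54.98 ± 3.97 CPM. PCNA, the sliding clamp of the replication polymerases, had the smallest (−0.03, Q = 0.74) and was lower on day 1 (−0.62) and day 10 (−0.97). A published list of S phase genes holds 4 of the 34 (BLM, BRIP1, EXO1 and RAD51AP1). It also shares genes with the replication list, among them PCNA, MCM6, PRIM1 and RRM2, so these lists are not separate sets. Its 38 other measured genes had 35 higher and 1 lower on day 1, 37 and 0 on day 2 and 27 and 1 on day 10, with medians of 1.05, 1.42 and 0.61. Their mean level was 4.36 to 4.44 on the log2 CPM scale in the untreated libraries and 5.85 to 5.96 in those of day 2, and that of the 34 repair genes was 3.84 to 3.90 and 4.86 to 5.05. The 54 genes of the matching G2/M list, which holds 0 of the 34, had 29 higher and 7 lower on day 1 and 52 and 0 on day 2 (medians 0.32 and 1.85). UHRF1 led the S phase list on day 2 (3.10) and AURKA the G2/M list (2.90), while CBX5 had the smallest G2/M change (0.44). In the study's own flow cytometry of RPMI-8226 cells, proliferation had its low point on day 2 and had started to rise by day 4. The part of the cell cycle in the changes of the 34 genes was not tested.

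**Figure D3:**
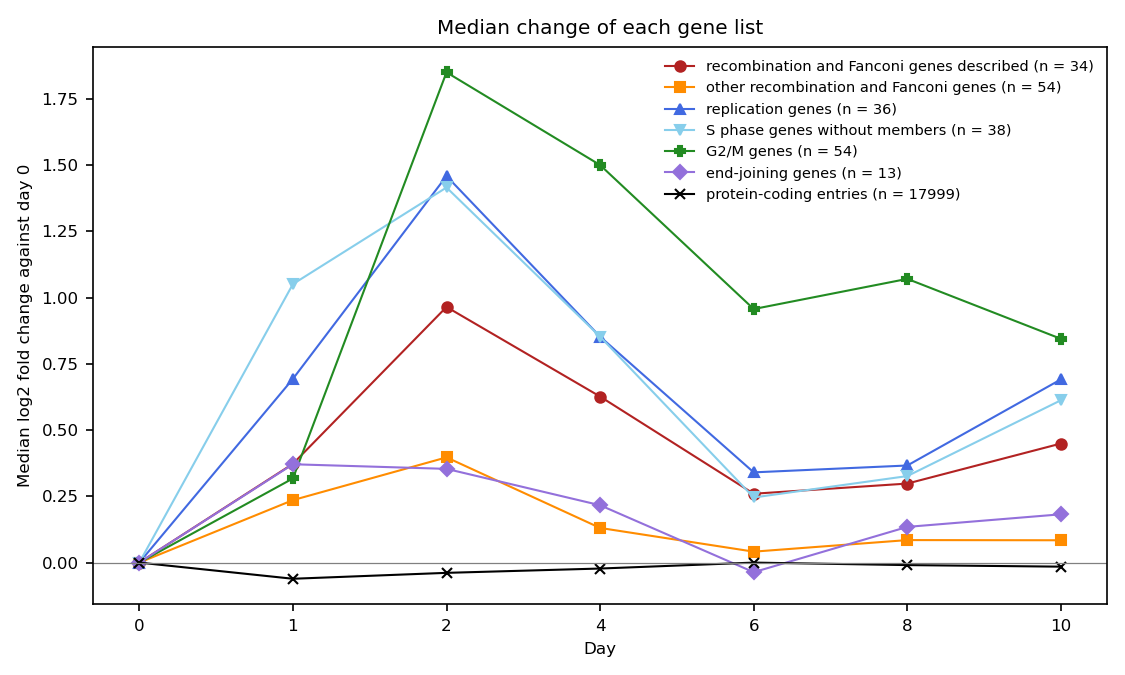
Median log2 fold change of each gene list against day 0 (vertical axis) by day (horizontal axis, not to scale in time); day 0 is 0 by definition. The 34 genes reached 0.96 on day 2, below the replication genes at 1.46. They were above the other recombination and Fanconi genes at 0.40 and the end-joining genes at 0.35. Differences between lists were not tested, and the replication and S phase lists share genes.

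Other genes of the same pathways included members called in both directions. Of the 12301 entries that passed the low-count filter, 36.1% were higher and 34.8% lower on day 1. On day 2 these shares were 33.1% and 31.7%, and on day 10 they were 23.1% and 21.6%. Of 54 further genes for recombination and Fanconi repair, day 1 had 23 higher and 8 lower, day 2 had 32 and 4, and day 10 had 14 and 4, with medians of 0.24, 0.40 and 0.08. MND1, a factor of meiotic recombination, had the largest day 2 change (2.55, SE 0.23, Q = 1.5e-12) and FAN1, a nuclease of crosslink repair, the smallest (−0.56, SE 0.15, Q = 0.00205). SEM1 encodes a small protein that binds BRCA2 and is also a subunit of the proteasome. It stood highest on day 1, at 204 ± 11.8 CPM against 64.1 ± 7.74 on day 0 (1.67, SE 0.07, Q = 5.26e-23), and was 0.42 above day 0 on day 2. Of 13 genes of non-homologous end joining, the route that ligates ends without a template, 7 were higher and 5 lower on day 1 and 7 and 2 on day 2 (medians 0.37 and 0.35). PRKDC, the kinase of that route, rose by 1.00 on day 2 (Q = 1.85e-16), and LIG4, its ligase, fell from 20.02 ± 1.12 to 8.38 ± 2.13 CPM (−1.27, SE 0.15, Q = 1.83e-09).

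The table also counts transcripts of the same symbols that encode no full protein, which the choice of genes did not use. Counts are estimates, and reads that transcripts of a gene share could have gone to either. On day 6 the protein-coding entry of RAD50 ranged from 1.91 to 58.7 CPM, and the sum over its entries from 65.4 to 111 CPM. These entries are therefore no separate readout of the genes. The 34 symbols had 80 such non-coding entries with a count (26 sent to nonsense-mediated decay, 27 processed transcripts, 26 with a retained intron and 1 non-stop). These were fitted together with the entries of every biotype, so that their changes rest on other scaling factors than those above. On day 1, 2 were higher and 2 lower, beside 4.94% and 10.9% of the 25396 entries of these 4 biotypes. On day 2, 11 were higher and 2 lower, beside 3.84% and 9.52%. Of the 37 of the 80 that passed the filter on low counts, 10 were higher and 1 was lower on day 2. The shares given are of all 25396 entries and not of those that passed the filter, so they are no measure for the 37.

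For a few genes most counts lay outside the protein-coding entry. The protein-coding entry held 17.3% of the counts of XRCC2 on day 0, 31.8% of RAD50, 34.5% of RAD52 and 46.6% of BLM. The decay transcript of RAD50 rose from 44.7 to 63.3 CPM on day 2 (log2 fold change 0.51, SE 0.10, edgeR adjusted p = 5.81e-05), where the protein-coding entry was not called. A processed transcript of XRCC2 rose from 11.7 to 31.4 CPM (1.42, SE 0.16, Q = 1.03e-09), and the decay transcript of BLM from 3.16 to 18.2 CPM (2.51, SE 0.59, Q = 0.00114). The retained-intron transcript of FANCI rose from 8.34 to 23.3 CPM (1.49, SE 0.19, Q = 3.09e-08). That of ATM fell from 41.2 to 22.8 CPM on day 1 (−0.86, SE 0.18, Q = 0.000167), on the day when its protein-coding entry fell. Summed over all entries of a symbol, 20 of the 34 were higher and 4 lower on day 1 (27.8% and 29.5% of 17999 symbols), 32 and 1 on day 2 (25.5% and 26.7%) and 26 and 0 on day 10 (18.3% and 18.4%). In that sum untreated cells had 12.1 ± 1.204 CPM of BLM (SD, n = 5) and day 2 cells 47.6 ± 1.54 CPM, and RAD50 passed the test on day 2 (0.31).

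**Figure D4:**
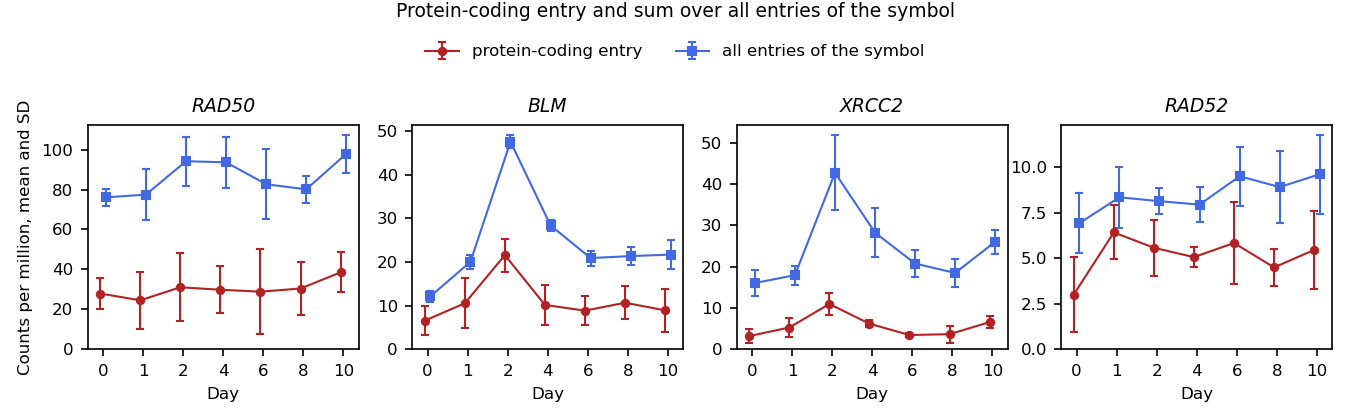
CPM of the protein-coding entry (red circles) and of all entries of the symbol together (blue squares) for RAD50, BLM, XRCC2 and RAD52 by day, as mean and SD of 5 libraries. The SD of the protein-coding entry of RAD50 was 17.03 CPM on day 2 around a mean of 31.03, and the summed level of BLM on day 2 stood clear of every other day.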

How the data were processed

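Total RNA of RPMI-8226 subcultures (35 libraries, 7 days, 5 each) was sequenced with a directional kit. The study's methods give 5 subcultures for RNA sequencing, sampled on each of the days. The authors made the deposited estimated counts by pseudoalignment with Kallisto 0.44.0 to the GENCODE transcriptome of GRCh38.p12, with a GC adjustment, and summed them by symbol and biotype with tximport, adjusted for gene length; R 3.5.0 and DESeq2 1.25.8 were also named by them. Whether strand was used is not given in the sources used here, so genes that overlap another on the opposite strand are uncertain. Every column was matched to a sample.

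Counts were rounded to whole numbers. Protein-coding entries with a count were scaled by TMM and fitted in 1 model over the 7 days with the quasi-likelihood test of edgeR 4.0.16 (R 4.3.3), and p-values were adjusted by Benjamini and Hochberg over all 17999. The SE is the size of the log2 fold change over the square root of F. Levels on the log2 CPM scale used a prior count of 2. The low-count filter was filterByExpr. Counts per library were 6519392 to 10962890, and FANCB, RAD52 and XRCC2 had the fewest. On simulated day 1 against day 0 counts of 16593 genes, 98 of 100 changes of 4-fold and 68 of 100 of 1.5-fold were recovered. The changed genes were drawn from those above a floor of expected counts on day 0, and FANCB lay below it. The rates therefore do not describe genes with so few counts.

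The 34 genes and the other lists were chosen with earlier results of these data known, so they are no independent evidence. Values in every library are given for genes past 2-fold at an adjusted p of at most 0.05 on day 1, 2 or 10 and for the highest and lowest of each role on day 2. From other lists the highest and lowest on day 2, and SEM1, are named; some genes of these lists are counted but not reported here by name. S phase and G2/M genes are those of Seurat 5.3.0. Alternatives were DESeq2 1.42.0, other scaling factors, the low-count filter, a replicate block, a fit of 2 days alone, leaving out each library and, added after seeing the data, factors over all biotypes and sums over biotypes.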

Additional observations from a re-analysis of the deposited data

Results flagged for a closer look

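In 12 of the 238 groups of 5 libraries (34 genes on 7 days), 1 library lay far from the other 4 by Dixon's criterion, and chance gives about 1 in 20, or 11.9. Libraries above the rest of their day were BLM at 17.3 CPM (day 8, replicate 3), BRIP1 at 23.0 CPM (day 2, replicate 4) and 15.4 CPM (day 10, replicate 5), EXO1 at 37.3 CPM (day 2, replicate 4), FANCC at 7.89 CPM (day 1, replicate 4), FANCE at 18.0 CPM (day 2, replicate 4) and 14.8 CPM (day 6, replicate 5), FANCM at 16.1 CPM (day 1, replicate 3) and UIMC1 at 42.0 CPM (day 10, replicate 2). Libraries below the rest were FANCE at 6.67 CPM (day 0, replicate 2), FANCI at 179.9 CPM (day 2, replicate 2) and RAD54B at 4.21 CPM (day 8, replicate 3).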

How the results depend on the processing

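Asking for more than 2-fold as well left 6, 16, 9, 4, 5 and 7 of the 34 genes higher on days 1, 2, 4, 6, 8 and 10 and 0 lower on any of these days, 11 higher and 0 lower from day 1 to 2, 1 lower from day 2 to 4, 0 lower from day 4 to 6, 0 higher and 0 lower from day 8 to 10 and 6 lower from day 2 to 10. Of the 12301 entries that passed the low-count filter, 1026 were higher and 499 lower by more than 2-fold from day 1 to 2. From day 2 to 4, 139 were lower by that much, from day 4 to 6, 30, and from day 2 to 10, 395. From day 8 to 10, 30 were higher and 69 lower. TMM factors over all biotypes gave 3, 0, 0 and 1 lower on days 1, 2, 6 and 8, and library size without factors gave 3, 0 and 1 on days 1, 2 and 6. A fit of the 2 days alone gave 3 lower on day 1, 3 higher from day 8 to 10 and 1 higher from day 2 to 10. The low-count filter gave 1 higher from day 2 to 4 and from day 2 to 10, as did sums over biotypes, which gave 15 lower from day 4 to 6. RBBP8 on day 1 turned to 0.054 with factors over all biotypes, and FANCC to 0.34 in the sum. The filter left 1 non-coding entry lower on day 2. The cause of these changes was not tested. With single libraries left out, 16 to 19 were higher and 3 to 5 lower on day 1, 26 to 29 and 1 on day 2, 19 to 21 and 0 to 1 on day 4 (1 without replicate 3 of day 4), 14 to 17 and 3 to 4 on day 6, 13 to 17 and 2 to 3 on day 8, and 16 to 19 and 0 on day 10. Between days, 23 to 24 rose and 1 to 2 fell from day 1 to 2 (1 without replicate 5 of day 1 or 1 of day 2), 0 to 1 rose from day 2 to 4 (1 without replicate 2 or 3 of day 2 or 1 or 5 of day 4), 0 to 1 fell from day 6 to 8 (1 without replicate 3 of day 8), 3 to 7 rose from day 8 to 10 and 0 to 1 rose from day 2 to 10 (1 without replicate 2 of day 10 or 3 of day 2). From day 2 to 4, 21 to 23 fell, each below the 24 of the fit with all libraries. From day 4 to 6, 7 to 10 fell, and from day 2 to 10, 20 to 24. Non-coding entries gave 1 to 3 higher and 2 to 4 lower on day 1 and 8 to 10 higher and 1 to 2 lower on day 2. The 11 higher on day 2 with all libraries lie outside that range. The replicate block gave 18 higher and 5 lower on day 1 and 28 and 1 on day 2. Replicate numbers paired the libraries weakly at most. Same-numbered libraries had a median correlation of 0.0012 (−0.123 to 0.136), against −7e-04 for libraries of different numbers. Of 35 libraries, 14 correlated best with their own number, where chance gives about 1 in 5. Of 204 changes of a gene on a day, the direction and call were kept for 200 by DESeq2, 199 under the filter, 201 under the block, 181 without factors, 190 with the 2 days alone, 171 with factors over all biotypes and 169 in the sums. FANCB, RAD52 and XRCC2 had the fewest counts, and the day 2 SEs were largest for RAD50 (0.41) and BLM (0.36).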
